A study of Mus musculus with 3 samples.

Results

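The comparison sets red pulp macrophages against Spic-negative monocytes of the adult mouse spleen, gene by gene, on the 2 of 3 Affymetrix mouse expression arrays of the series that hold these populations. The members are the array titled Red Pulp Macrophage and the array titled GFP- Monocytes, with 1 array each, so there was no replicate and no significance test. Both populations came from Spic(igfp/+) mice, in which 1 allele of Spic carries a green fluorescent protein (GFP) reporter, so the macrophages and the monocytes alike carried the reporter allele. No treatment is given in the labels, nor the number, sex, strain or exact age of the animals or whether they were pooled. Monocytes were gated as CD11b and Ly6C positive and GFP negative after bead depletion of CD4, CD8 and B220 bearing cells, and macrophages as high for GFP and for the macrophage antigen encoded by Adgre1. Whether the macrophages went through the same depletion is not clear from the labels. The third array, of GFP positive monocytes, entered only the choice of probe set and the floor, and its levels are given where they help to place a value.

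Red pulp macrophages are the resident phagocytes of the splenic red pulp that engulf aged red blood cells, break down their heme and return the iron to the blood. SPIC is an Ets-family transcription factor on which these cells depend. Classical monocytes are circulating cells that leave the bone marrow through the chemokine receptor CCR2, enter tissue and can become macrophages there. The title of the series places the comparison in the development of one from the other.

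Levels are log2 RMA expression, and a difference is the macrophage level minus the Spic-negative monocyte level, so that 1 is 2-fold and 2 is 4-fold. Where a pair of levels is given without names, the monocyte level comes first. Each of 18193 genes was represented by its probe set of highest mean over the 3 arrays, and 11881 genes above a floor of 5.02 on at least 1 of the 2 arrays were compared. The floor is the median level over the 3 arrays once control probe sets are set aside. A level under it is near background, so the size of a difference from such a level rests on the background. Of the genes compared, 10225 were above the floor on both arrays, 926 on the macrophage array alone and 730 on the monocyte array alone.

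Across the genes compared, 2420 were at least 2-fold higher in macrophages (20.4%) and 1395 at least 2-fold lower (11.7%). At 4-fold the counts were 913 (7.68%) and 325 (2.74%). At 16-fold they were 197 and 23. Of all genes, 52.7% were higher by any amount. The median difference was 0.06 and the middle 50% of genes lay between -0.52 and 0.79. Large differences were therefore more often upward, while the bulk of genes was centred near 0. In the counts of gene groups below, higher and lower mean at least 2-fold, to be read against these 20.4% and 11.7%, and a group's median against 0.06. Restricted to genes above the floor on both arrays, 492 were at least 4-fold higher and 258 lower, and 65 were at least 16-fold higher and 10 lower.

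**Figure D1:**
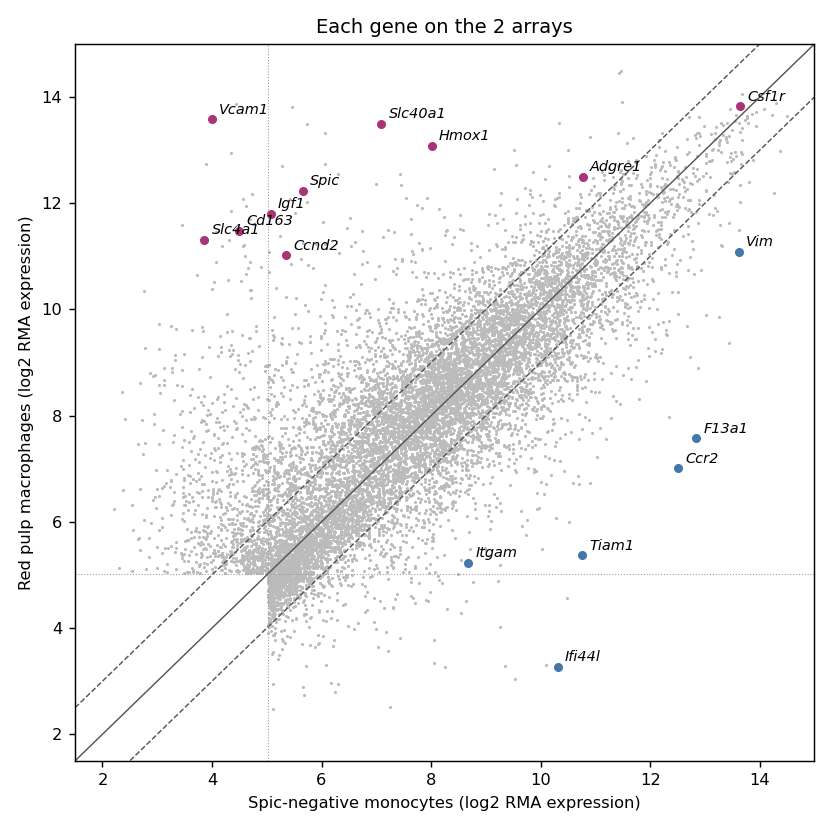
Each grey point is 1 of the 11881 genes compared, with its level in Spic-negative monocytes on the x axis and in red pulp macrophages on the y axis (log2 RMA expression, 1 array each). The solid line marks equal levels, dashed lines 2-fold differences and dotted lines the floor of 5.02, and the named genes of macrophages (Vcam1, Spic, Hmox1) lie far above the diagonal while Ccr2, F13a1 and Tiam1 lie far below it.

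The markers given for the 2 populations went with the labels. Spic measured 5.66 on the Spic-negative, 9.22 on the Spic-positive and 12.23 on the macrophage array. The cells were gated on GFP from the Spic allele, so the direction for Spic was set by the sort and is no independent check. Vcam1, an adhesion receptor for integrin alpha 4 beta 1, measured 4.0, 9.58 and 13.58, and its other probe sets differed by 6.21 and 6.60 between macrophages and Spic-negative monocytes. Cd163, the receptor for hemoglobin bound to haptoglobin, measured 4.49, 3.81 and 11.48 and so was above the floor in macrophages alone. Ccr2 ran the other way with 12.51, 12.03 and 7.0. Of the other sort antigens, Adgre1 differed by 1.73 and Itgam (CD11b) by -3.45. The gates given name the Adgre1 antigen for the macrophages and CD11b for the monocytes only. Each gate therefore bears on 1 of the 2 arrays, and no gate for low CD11b is given for the macrophages. Ly6c2, a gene of the Ly6C antigen, had no probe set of its own. Csf1r, the receptor for macrophage colony-stimulating factor that both lineages need, was high on both arrays at 13.65 and 13.83.

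Several features of the libraries differed along with the populations. Xist, which coats the silenced X chromosome in females, measured 4.63 on the Spic-negative, 4.70 on the Spic-positive and 11.95 on the macrophage array, while the Y-linked genes Eif2s3y (10.10, 9.56 and 3.31), Kdm5d (7.25, 6.49 and 2.52) and Uty (5.68, 4.61 and 2.73) ran opposite, so the sex of the animals and the cell type cannot be told apart. For Gapdh, the control probe set at the 3' end exceeded that at the 5' end by 0.48 on the Spic-negative array and 1.61 on the macrophage array, and for beta-actin by 0.74 and 1.13. On the Spic-positive array these excesses were 2.25 and 0.57. Its hybridization controls had a median of 12.02, against 9.83 on the Spic-negative and 9.96 on the macrophage array, which limits the use of its levels to place a value. In a gene's further probe sets the difference was lower than in its brightest probe set by a median of 0.17 (8985 further probe sets, medians -0.11 and 0.06). This shift was not uniform. Its median was -0.61 where the brightest probe set was at least 2-fold higher, -0.16 where it was within 2-fold and 0.44 where it was at least 2-fold lower. The labels give no strain, so a difference in genetic background could not be separated from the cell type. The part of sex, of genetic background and of RNA quality in the differences below was not tested. In sorted bulk samples, a different number of cells of a type and a different amount of RNA per cell cannot be told apart either.

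Markers of several other cell types were higher on the macrophage array, and whether such cells were present was not tested. Erythroid markers were the clearest: of 22 with a probe set of their own, 19 could be compared and 17 were higher (against 20.4% of all genes compared), with a median difference of 4.69, and their summed linear signal was 10.57 in monocytes and 14.17 in macrophages (log2). The red cell membrane protein gene Slc4a1 (band 3) measured 3.86 and 11.32, the erythroid heme synthesis gene Alas2 4.69 and 10.89, and Car1, a red cell carbonic anhydrase, 4.72 and 10.37. All 3 were under the floor in monocytes. The water channel gene Aqp1 (difference 4.61) and the blood group genes Rhd (4.69), Rhag (4.53) and Ermap (4.78) went with them. Nfe2 was the exception at -1.23. Sptb, at 5.53 and 5.58, did not differ by 2-fold, and Hba-a1, Hbb-b2 and Epb42 were under the floor on both arrays, although a further probe set of Hbb-b2 and of Epb42 differed by 3.13 and 4.43.

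Lymphocyte genes were higher as well. Of 14 B cell markers compared 8 were higher and none lower (median 1.27), and of 9 plasma cell markers 6 were higher (median 1.72). The B cell markers were not raised on the macrophage array alone. Their median level was 5.78 on the Spic-negative, 7.75 on the Spic-positive and 6.96 on the macrophage array. Bank1, a B cell adaptor, measured 6.75 and 11.09, Mzb1, a chaperone of plasma cells, 7.54 and 12.09, and Ighg3, the constant region of IgG3, 6.05 and 13.31. Defining B cell genes were uneven. The antigen receptor chain Cd79b measured 7.16 and 9.82 and the coreceptor gene Cd22 6.56 and 8.51, whereas Pax5, at 4.69 and 5.05, and Cd79a, at 4.85 and 5.92, were near the floor and Ms4a1 (CD20) differed by 0.58. Of 13 genes of natural killer and cytotoxic cells 10 were higher (median 2.10), led by the inhibitory receptor gene Klra8 (2.72 and 7.92), the granzyme gene Gzma (4.31 and 9.24) and the transcription factor gene Eomes (3.93 and 8.10). T cell markers were higher in 7 of 12 (median 1.15). Cd3g measured 3.48 and 6.99 and Icos, a costimulatory receptor, 4.67 and 9.47, whereas Cd3e measured 6.63 and 6.16. Of the basophil, mast cell and eosinophil list, 6 of 12 members could be compared and 4 were higher, among them Ccr3, the eotaxin receptor (2.77 and 9.28), and Prg2, a granule protein of eosinophils (3.27 and 8.89), while Epx and Cpa3 were under the floor on both arrays.

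Platelet genes were split. The chemokine genes Ppbp (4.38 and 9.23) and Pf4 (4.97 and 8.94), Vwf (5.58 and 9.39) and Tubb1 (4.92 and 7.34) were higher, but Itga2b, the integrin subunit that defines platelets, measured 6.64 and 6.96 and the adhesion receptor gene Gp9 5.99 and 6.27. Of 10 markers compared 5 were higher. Endothelial and stromal markers were higher in 6 of 16 (median 0.42): Stab2 and the lymphatic receptor gene Lyve1 differed by 7.51 and 3.10, while the endothelial genes Tek, Tie1 and Emcn were under the floor on both arrays and Cdh5 reached 5.20. Neutrophil genes showed no common direction, with 2 of 13 higher and 4 lower. Dendritic cell markers were higher in 6 of 14 and lower in 2. The part of any such cells in the groups described next was not tested.

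**Figure D2:**
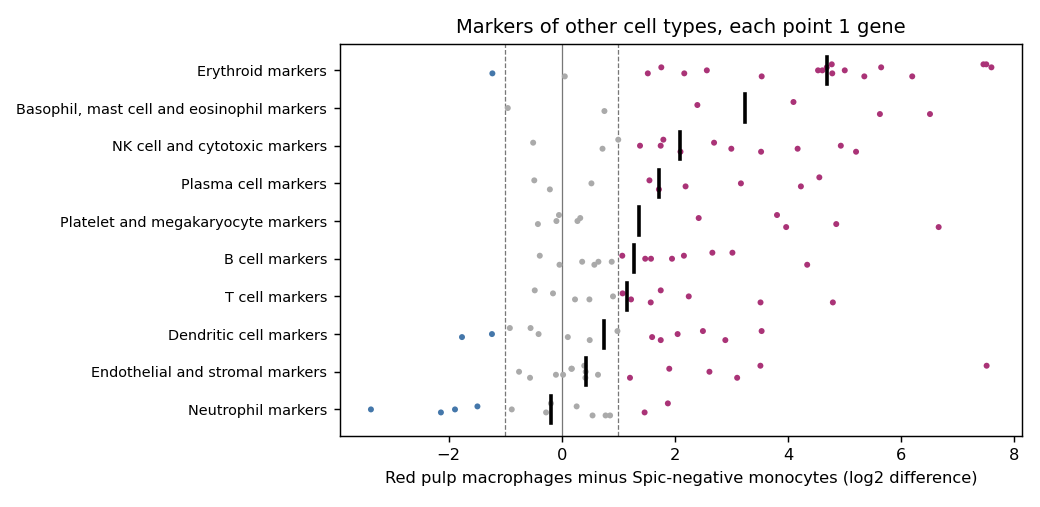
Each point is 1 marker gene of the cell type named at the left, placed by its log2 difference between red pulp macrophages and Spic-negative monocytes. Purple points are at least 2-fold higher, blue at least 2-fold lower and grey within 2-fold, and black bars mark medians, which run from 4.69 for erythroid markers to -0.19 for neutrophil markers.

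Of the red pulp macrophage list, 22 genes were compared, 20 were higher and none was lower, with a median of 5.53. The list names what these cells are known for and so is no independent evidence of its direction. Its members cover uptake, iron and regulation, and are described below by role. The 2 that did not pass 2-fold were Siglec1 (CD169), at 5.89 and 6.09, and the lectin gene Cd209f, at 5.34 and 5.39. Clec4f, a marker of liver macrophages, was under the floor on both arrays. Gfra2, a coreceptor for neurturin, measured 5.85 and 10.77 on its brightest probe set, but its 4 other probe sets gave differences of 0.07, 0.15, 1.70 and 8.46, so its level is uncertain.

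The classical monocyte list ran the other way. All 17 members compared were lower, 16 of them by at least 2-fold (against 11.7% of all genes), with a median of -2.83. The smallest difference was -0.88 for Mgst1, a membrane glutathione transferase. Lysozyme (Lyz2) measured 14.38 and 12.99 and Chil3, a chitinase-like secreted protein, 13.19 and 11.90, so both kept a high level in macrophages. The versican gene Vcan measured 9.23 and 4.88, under the floor in macrophages. F13a1, the A chain of coagulation factor XIII, measured 12.84 and 7.58, and Plac8 13.62 and 11.50. Nonclassical monocyte genes, which mark the patrolling population, had no common direction: 4 of 15 were higher and 7 lower. Cx3cr1, the fractalkine receptor, measured 10.69 and 7.56, Nr4a1, the nuclear receptor that patrolling monocytes need, 13.29 and 11.22, and Treml4, an immune receptor of the TREM family, 10.15 and 12.71.

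**Figure D3:**
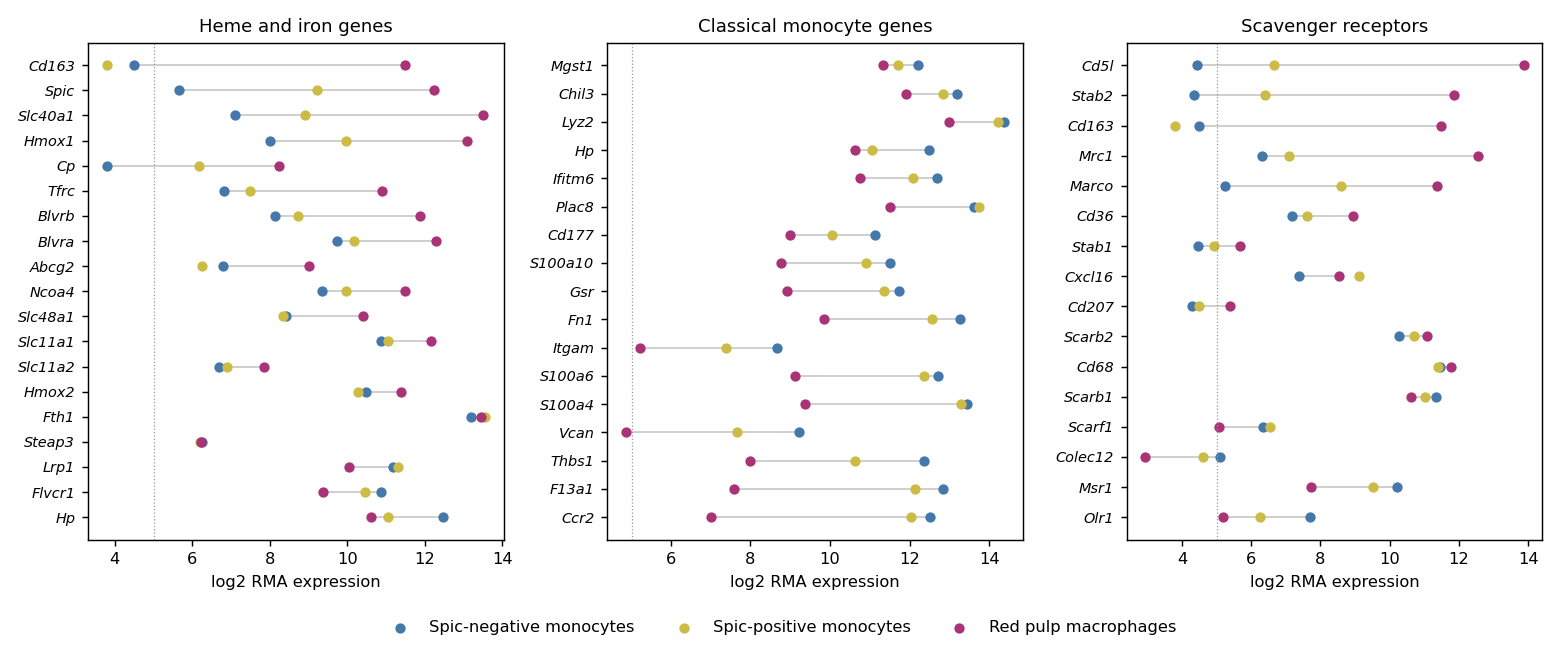
Levels (log2 RMA expression, 1 array each) of the compared members of 3 gene groups in the 3 sorted populations, ordered by the difference between macrophages and Spic-negative monocytes. Slc40a1 runs from 7.09 to 13.50 and Ccr2 from 12.51 to 7.0, and the dotted line is the floor of 5.02.

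Heme and iron genes were higher at most steps of the route from hemoglobin to export. Of 19 compared, 13 were higher and 3 lower (median 2.14). At the entry, Cd163 was higher by 6.99. Heme leaves the phagolysosome through the transporter encoded by Slc48a1 (HRG1), at 8.41 and 10.40. Heme oxygenase 1 (Hmox1) then opens the ring, with 8.01 and 13.08, and the constitutive Hmox2 measured 10.50 and 11.38. The biliverdin reductase genes, which make bilirubin, measured 9.72 and 12.28 (Blvra) and 8.14 and 11.88 (Blvrb). Iron exits through ferroportin (Slc40a1), at 7.09 and 13.50, and Cp, a ferroxidase that oxidizes exported iron, measured 3.80 and 8.25.

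Storage and uptake of iron gave a mixed picture. Fth1, the ferritin heavy chain, was near the top of the scale on both arrays (13.21 and 13.44), and Ncoa4, which carries ferritin to the lysosome, measured 9.35 and 11.50. The transferrin receptor gene Tfrc measured 6.83 and 10.89, and it is also a strong gene of erythroid precursors. The endosomal iron transporters Slc11a1 (NRAMP1) and Slc11a2 (DMT1) were higher by 1.30 and 1.15. The ferrireductase gene Steap3 did not differ by 2-fold (-0.04). Hp (haptoglobin), Lrp1, a receptor for the heme carrier hemopexin, and the heme exporter gene Flvcr1 were lower, with differences of -1.85, -1.12 and -1.51, although the other probe sets of Lrp1 and Flvcr1 pointed upward (2.41 and 0.40).

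Receptors for cargo separated into a high and a low set. Of 16 scavenger receptors 9 were higher and 4 lower. Cd5l, a secreted member of the family, measured 4.43 and 13.86, Mrc1, the mannose receptor CD206, 6.30 and 12.55, and Marco, a receptor for bacteria and particles, 5.24 and 11.38. Other receptors were higher in monocytes: Msr1 (scavenger receptor A) measured 10.20 and 7.72 and Olr1, which binds oxidized low-density lipoprotein, 7.71 and 5.18. Cd68, a lysosomal glycoprotein of all macrophages, measured 11.44 and 11.76. The collectin gene Colec12 lay near the floor on the monocyte array (5.10) and measured 2.94 in macrophages.

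In the apoptotic cell uptake group 9 of 19 genes were higher and 3 lower. The receptor kinase genes Mertk (5.27 and 12.70) and Axl (7.32 and 11.46) were higher, and so was their bridging ligand Gas6 (4.40 and 7.89). Pros1, protein S, the other bridge, was lower at 8.71 and 6.88, so the 2 ligands differed in direction. The phosphatidylserine receptor genes Timd4 (3.63 and 9.62) and Stab2 (4.35 and 11.86) were under the floor in monocytes only. Dock1, an activator of Rac that acts in engulfment, measured 8.47 and 7.09 and its partner Elmo1 9.14 and 8.32. The integrin route was uneven, since Itgb5 measured 9.79 and 11.96 while Itgav differed by -0.41 and Itgb3 by -0.05.

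Complement genes were higher in 14 of 19 and lower in 2, with a median of 2.29. The C1q chains, which bind immune complexes and dying cells, measured 4.35 and 12.96 (C1qa), 5.74 and 13.50 (C1qb) and 3.89 and 12.74 (C1qc). C1ra, a protease of the C1 complex, measured 5.62 and 7.35, and C2 5.46 and 8.82. C6, of the terminal membrane attack pathway, measured 4.58 and 11.22. Of the regulators, Cd55, which dissolves convertases, measured 4.03 and 7.40, and Cd59a, which blocks the membrane attack complex, 5.22 and 7.51, while Cr1l differed by 0.48. Receptors went both ways. Vsig4, a macrophage receptor for C3 fragments, measured 4.36 and 9.16, while C5ar1, the C5a receptor, measured 7.70 and 4.48, under the floor in macrophages, and Itgam, the alpha chain of complement receptor 3, measured 8.68 and 5.23. C3ar1, the C3a receptor (5.25 and 6.50), and Itgax, the alpha chain of complement receptor 4 (7.27 and 8.50), were higher.

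C1qb and C1qc, genes of chromosome 4 that were higher together, had an entry in the RefSeq promoter table (GRCm38.p6), as did Igf1, which is described with the cytokines. The 250 bases before their starts are shown as examples. Rank alone did not set this choice, since windows of other genes near the top of the comparison are not shown. The C1qb window is chr4:136886201-136886450 and the C1qc window chr4:136892915-136893164, both on the minus strand, and the Igf1 window chr10:87860861-87861110 on the plus strand. Sequences run 5′ to 3′ and end at the base before the start. Capitals mark matches to any of 5 motifs searched on both strands: the PU box GAGGAAGT of the PU.1 and SPIC subfamily, the AP-1 and MAF core TGANTCA, the GATA site AGATAAG, the interferon-stimulated response element (GAAA, NN and GAAA in 1 run) and the GC box CCGCCC.
C1qb: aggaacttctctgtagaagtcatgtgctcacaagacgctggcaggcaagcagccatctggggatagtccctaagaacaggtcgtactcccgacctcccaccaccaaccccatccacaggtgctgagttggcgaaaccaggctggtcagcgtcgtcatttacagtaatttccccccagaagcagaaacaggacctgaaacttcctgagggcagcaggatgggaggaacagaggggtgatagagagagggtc
C1qc: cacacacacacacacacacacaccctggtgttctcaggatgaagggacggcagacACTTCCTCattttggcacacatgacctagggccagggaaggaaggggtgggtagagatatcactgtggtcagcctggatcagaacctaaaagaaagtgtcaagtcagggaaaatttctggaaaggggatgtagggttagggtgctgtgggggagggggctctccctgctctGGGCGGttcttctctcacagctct
Igf1: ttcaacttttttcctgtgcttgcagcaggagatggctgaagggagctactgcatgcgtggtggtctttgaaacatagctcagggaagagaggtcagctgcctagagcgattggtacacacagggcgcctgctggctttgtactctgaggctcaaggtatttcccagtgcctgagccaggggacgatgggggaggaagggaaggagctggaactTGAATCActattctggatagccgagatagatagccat

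The C1qc window held a PU box on the opposite strand, with its first printed letter 195 bases before the start, and a GC box 24 bases before it. The Igf1 window held 1 AP-1 and MAF core 37 bases before the start. None of the 5 letter strings was in the C1qb window, which says nothing about the factors. The windows of Cd5l, Fcna, Mertk, Cd163, Spic, Mrc1 and Marco, also near the top, held no PU box and no AP-1 and MAF core. Of the 5 motifs, only the GC box occurred in them, in the windows of Mertk and Mrc1. Over all promoters of the table, 2.44% held the PU box and 6.75% the AP-1 and MAF core. Among promoters of genes compared (12267 promoters of 9605 genes) the shares were 2.49% and 4.79%. The PU box was in 2.63% of 951 promoters of genes at least 4-fold higher and in 3.03% of 330 promoters of genes at least 4-fold lower. The AP-1 and MAF core was in 7.78% and 8.79% of these, above the 4.79% of all genes compared in both directions alike, and at 2-fold in 5.73% and 6.09%. The GC box was in 50.2% and 47.9% against 55.7% of genes compared, but at 2-fold in 53.4% and 57.9%, so that for lower genes the share lay on the other side. The GATA site was in 1.79% and 2.42% against 1.84%, and at 2-fold in 2.14% and 1.76%. These shares are descriptions, and promoters of 1 gene share sequence.

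Fc receptors, which bind antibody-coated cargo, were higher in 5 of 9 compared and lower in 2. The activating receptor genes Fcgr1 (9.67 and 11.34) and Fcgr4 (9.04 and 11.59) were higher, but Fcgr3, also activating, measured 12.27 and 11.75. The inhibitory receptor gene Fcgr2b was lower at 12.31 and 9.52, with its 4 probe sets above the floor between -2.87 and -2.74. The signalling chain Fcer1g measured 13.17 and 12.16. Fcgrt, the neonatal receptor that recycles IgG, measured 9.06 and 11.80. Fcrl1 and Fcrla, at 9.40 and 6.91 in macrophages, are B cell genes, and B cell markers were higher on the same array.

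Lysosomal genes were mostly as high in monocytes as in macrophages. Of 30 compared 8 were higher and 3 lower (median 0.27), and no member compared was under the floor on either array. Acp5, an acid phosphatase, stood out with 7.74 and 11.97, followed by the protease gene Ctsd (9.86 and 12.60). Lipa, the lysosomal lipase, and Ctsb, a cysteine protease, were near the threshold at 1.0 and 1.12, with another Lipa probe set at -2.04. For Ctsb the brightest probe set gave the lowest difference of 5, and the highest was 3.15. Lamp1, Grn, Ctsa and Ctsh differed by 0.04, 0.03, 0.04 and 0.05. Psap, which encodes the saposins, and Rab7, of late endosomes, differed by -1.06 and -1.02, with a second Psap probe set at -4.13.

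Lipid genes were higher in 14 of 26 and lower in 2 (median 1.07). The sterol-sensing receptor gene Nr1h3 (LXR alpha) measured 6.19 and 10.17, and of its known targets Abca1 (7.84 and 11.14), Abcg1 (9.83 and 11.28), Apoe (11.48 and 13.90) and Lpcat3 (8.36 and 9.80) were higher. Other targets were not: Mylip (0.74), Lpl (0.69) and Apoc1 (-0.11) stayed within 2-fold and Apoc2 was lower (-1.31). Pltp differed by 0.38 on its brightest probe set but by 2.95 on the other, so its direction past 2-fold is uncertain. Pla2g15, a lysosomal phospholipase, measured 7.92 and 12.09 and Plin2, a lipid droplet coat protein, 11.17 and 12.44. Genes of lipid synthesis went both ways. The desaturase gene Scd1 (5.59 and 7.67) and Srebf1, a regulator of fatty acid synthesis (8.62 and 9.74), were higher, and Scd2 was just past 2-fold at 1.02, with another probe set at -0.31. Sqle measured 7.68 and 7.73 and Fasn 7.65 and 7.28, while Srebf2, the regulator of sterol synthesis, was lower at 7.89 and 6.80.

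Enzymes of the eicosanoid pathway differed in direction, also within a branch. Ptgs2 (COX-2), the inducible enzyme at the start of the prostaglandin branch, was lower at 12.02 and 9.57. Of the downstream synthases, Ptgis for prostacyclin (3.32 and 9.15), Hpgds for prostaglandin D2 (3.84 and 8.20) and Tbxas1 for thromboxane (7.65 and 10.71) were higher, and Ptges2 for prostaglandin E2 differed by 0.88. Hpgd, which inactivates prostaglandins, measured 10.97 and 12.47. In the leukotriene branch Alox5ap was lower (13.31 and 11.20), and Alox5, Lta4h and Ltc4s differed by -0.94, 0.41 and 0.54. Of 15 genes compared 7 were higher and 2 lower.

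Metabolic groups differed in how many of their members stood apart. In the group of amino acid, polyamine and nucleoside genes 13 of 31 were higher and 3 lower. Adenosine deaminase (Ada) measured 4.53 and 10.54, and the nucleoside transporter gene Slc29a1 6.45 and 8.52. Entpd1 (CD39), which degrades extracellular ATP, measured 7.81 and 10.09. The cationic amino acid transporter gene Slc7a2 (3.30 and 8.30), ornithine decarboxylase Odc1 (9.28 and 12.20) and spermidine synthase Srm (7.35 and 9.80) were higher alike. Arginase split, with Arg1 at 3.69 and 5.82 and Arg2 at 8.44 and 6.37, and Xdh, xanthine dehydrogenase, measured 11.37 and 8.94.

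Glycolytic and pentose phosphate genes were higher in 2 of 24 and lower in 6. Hk3, a hexokinase of myeloid cells, and Ldha were higher by 1.29 and 1.18. Ldhb (8.67 and 6.52), Pkm (10.70 and 9.30), Pfkfb4 (10.02 and 8.12) and the lactate exporter gene Slc16a3 (6.43 and 4.44) were lower. Of 25 genes of oxidative phosphorylation 3 were higher and none lower, with all members between -0.67 and 1.21. The 13 ribosomal protein genes with a value all stayed within 2-fold, between -0.62 and 0.83. Of 20 antioxidant genes 6 were higher and 2 lower. Prdx2 (10.52 and 12.31) and Txn1 (11.68 and 13.22) were higher, and glutathione reductase (Gsr) was lower at 11.74 and 8.92.

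Metal and ion transport genes were higher in 13 of 25 and lower in 4 (median 1.09). The zinc and iron importer gene Slc39a8 measured 3.59 and 8.38, the zinc exporter gene Slc30a1 8.74 and 9.99, and the metallothionein genes Mt1 and Mt2, which bind zinc and copper, 9.36 and 10.78 and 6.53 and 10.07. The calcium-activated potassium channel gene Kcnn4 measured 6.74 and 11.48 and the proton channel gene Hvcn1 7.30 and 10.02. Of copper genes, Atp7a differed by -1.29, with its other probe set at 0.76, and the importer Slc31a1 by -0.97.

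**Figure D4:**
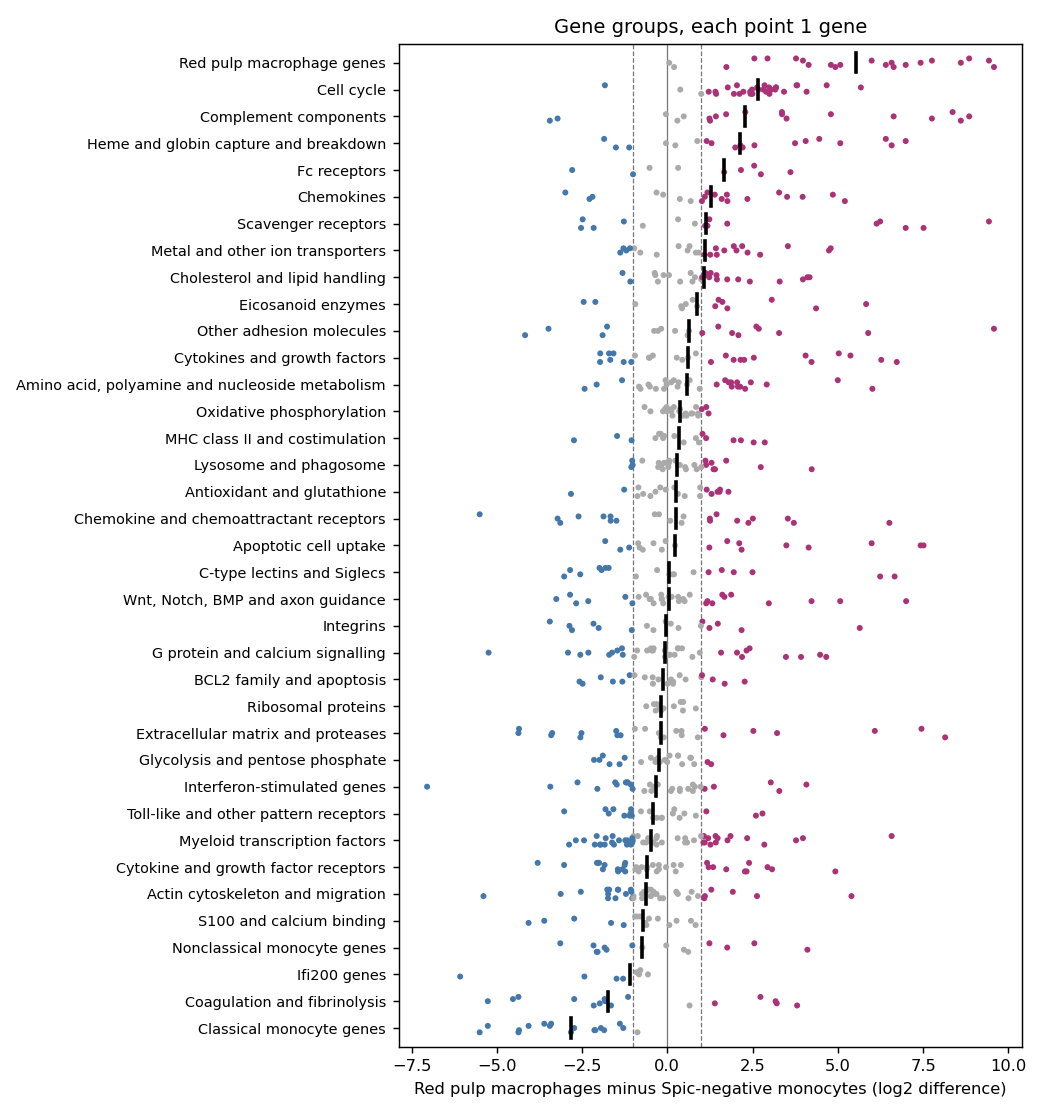
Each point is 1 gene of the group named at the left, placed by its log2 difference between red pulp macrophages and Spic-negative monocytes, with purple at least 2-fold higher, blue at least 2-fold lower, grey within 2-fold and a black bar for the median. Medians run from 5.53 for red pulp macrophage genes to -2.83 for classical monocyte genes, and ribosomal protein genes stay within 2-fold.

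Adhesion genes had differences in both directions. Of 17 integrin subunits 5 were higher and 6 lower. The pairing partners of the alpha 4 integrins, which bind VCAM1, showed Itga4 at 12.10 and 9.23, Itgb7 at 11.05 and 9.03 and Itgb1 at 9.77 and 9.17. Itgal (LFA-1) measured 12.50 and 10.34, while the shared beta chain Itgb2 stayed at 12.51 and 12.61. The highest upward value was that of Itga9, whose product also binds VCAM1, at 4.27 and 9.91. Among 19 other adhesion genes 9 were higher and 4 lower. Cadm1, a cell adhesion molecule of synapses and mast cells, measured 4.90 and 10.79, and 3 of its 4 probe sets differed by at least 5.89 and the fourth by 1.61. Cd93 (10.90 and 6.73) and Ceacam1 (11.79 and 8.31) were lower, with another Cd93 probe set at -0.72.

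In the actin and migration group 6 of 41 genes were higher and 14 lower, with no member under the floor. Tiam1, an exchange factor for Rac, measured 10.76 and 5.37. Coro1a, which caps branched actin in leukocytes, measured 13.02 and 9.90, the intermediate filament gene Vim 13.63 and 11.09 and Msn (moesin) 12.72 and 10.98. The formin gene Fmnl2 (5.45 and 10.85) and the filopodial motor gene Myo10 (5.48 and 8.11) were higher. Actb measured 13.93 and 13.72 on its brightest probe set, but a second probe set measured 13.45 and 8.92, a difference of -4.54. The S100 and annexin group had no member 2-fold higher and 5 of 16 lower, led by S100a4 (13.45 and 9.38) and S100a6 (12.72 and 9.11). The neutrophil-associated pair S100a8 and S100a9 differed by -0.28 and -0.88.

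Chemoattractant receptors had large differences in both directions. Of 22 compared 9 were higher and 8 lower. Besides Ccr2 and Cx3cr1, the lower ones were Ccr1 (9.54 and 6.94), Cxcr4, the bone marrow retention receptor (11.63 and 9.76), Ltb4r1, for leukotriene B4 (9.94 and 8.27), Gpr183, the oxysterol receptor (9.07 and 7.41), C5ar1 and Cxcr2. Higher ones were S1pr3, for sphingosine 1-phosphate (5.79 and 9.50), Cxcr3 (6.18 and 8.69), Ccr9 (3.75 and 7.29), Ackr3 (3.13 and 5.51) and Ccr3. Ccr3, Cxcr3 and Ccr9 are also genes of eosinophils or lymphocytes, and markers of these cells were higher on the same array.

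Signalling receptors for nucleotides formed a further set. P2ry13 (6.60 and 11.26), P2ry14 (4.74 and 9.22) and P2ry12 (5.97 and 8.39), which sense ADP or UDP sugars, were higher, and so was the lysophosphatidylserine receptor gene Gpr34 (3.58 and 7.50). P2ry6, the UDP receptor, was lower at 9.90 and 7.59. Plcb1, phospholipase C beta 1, measured 9.26 and 4.02, although another of its probe sets differed by only -0.73. Rgs1, a brake on G protein signalling, was higher by 3.48, and Rgs18, of myeloid cells and platelets, measured 9.19 and 6.28. Of the 35 genes of this group 9 were higher and 9 lower.

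Sensors of microbes were lower more often than higher. Of 23 pattern receptors and adaptors 3 were higher and 9 lower. The lectin receptor genes Clec4e (Mincle, 12.20 and 9.18), Clec7a (Dectin-1, 13.44 and 11.63) and Clec4d (10.82 and 9.10) were lower, as was the inflammasome gene Nlrp3 (10.56 and 8.97). Tlr4, the lipopolysaccharide receptor, was higher at 6.34 and 9.13, and Tlr3, for double-stranded RNA, at 4.96 and 7.56. The TLR4 partners Cd14 (13.26 and 13.11) and Ly96 (8.69 and 9.19) did not differ by 2-fold. In the C-type lectin and Siglec group 6 of 19 were higher and 7 lower. Clec1b (CLEC-2), the podoplanin receptor known from platelets, measured 5.42 and 12.08, and Clec10a, a galactose-type lectin of monocytes, 9.22 and 7.23. Clec4n (Dectin-2) was higher by 2.50.

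Interferon-stimulated genes had differences in both directions. Of 30 compared 5 were higher and 11 lower. Of the antiviral oligoadenylate synthetase family, Oas2 (10.04 and 7.99), Oas3 (7.94 and 4.51) and Oasl2 (9.83 and 7.20) were lower, while Oas1a and Oasl1 stayed within 2-fold at -0.67 and -0.51. Mx1 (9.73 and 8.24), Ifit1 (8.19 and 6.98) and Irf7 (10.25 and 9.07) were lower too. Ifi44l measured 10.31 and 3.27. Of the GTPase genes induced by interferon gamma, Iigp1 (5.57 and 9.65), Gbp6 (4.93 and 7.97), Gbp2 (9.47 and 10.84) and Irgm2 (7.46 and 8.56) were higher. The remaining higher member of the list, Ifi27, is not one of these GTPase genes and measured 7.83 and 11.12. Other GTPase genes were not higher by 2-fold. Gbp3 (0.75), Igtp (0.81), Irgm1 (-0.47) and Ifi47 (-0.28) stayed within 2-fold. Ifit2, Ifit3, Rsad2 and Cxcl10 differed by 0.37 to 0.75, with another Rsad2 probe set at -0.79. All 8 members of the Ifi200 family with a value, which bind DNA and lie together on chromosome 1, were lower, 4 of them by at least 2-fold, and Ifi202b measured 9.35 and 3.28 against -0.57 to -2.43 for the differences of the others. The receptor chains for interferon gamma, Ifngr1 and Ifngr2, measured 11.68 and 10.43 and 11.02 and 7.22, with a second Ifngr2 probe set at -0.67.

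Promoter windows of Ifit1 and Oas3 are shown because both genes were lower and their windows were chosen for holding the interferon-stimulated response element. The Ifit1 window is chr19:34640639-34640888 on the plus strand and the Oas3 window chr5:120777660-120777909 on the minus strand (GRCm38.p6, RefSeq), with the same motifs in capitals.
Ifit1: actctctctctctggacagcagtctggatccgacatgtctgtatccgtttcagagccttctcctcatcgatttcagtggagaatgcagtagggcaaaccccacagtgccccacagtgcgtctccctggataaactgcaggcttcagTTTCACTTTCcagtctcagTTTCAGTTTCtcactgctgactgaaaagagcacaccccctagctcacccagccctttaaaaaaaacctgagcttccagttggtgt
Oas3: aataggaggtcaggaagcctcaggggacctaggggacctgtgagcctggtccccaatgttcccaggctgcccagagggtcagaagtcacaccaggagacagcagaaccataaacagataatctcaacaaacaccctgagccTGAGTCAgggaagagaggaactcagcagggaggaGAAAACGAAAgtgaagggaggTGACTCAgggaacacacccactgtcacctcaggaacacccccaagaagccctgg

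In the Ifit1 window the element began 104 and 85 bases before the start, on the opposite strand. In the Oas3 window it began 75 bases before the start, between AP-1 and MAF cores at 109 and 54 bases. The element was in 3.94% of promoters of genes at least 4-fold lower and in 4.21% of those at least 4-fold higher, against 2.74% over the promoters of genes compared and 2.98% over the whole table. At 2-fold the shares were 2.98% and 2.91%, close to that of the genes compared. The windows of Ifi44l and Oasl2, which were lower too, held none.

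Antigen presentation differed little at its core. The class II chains H2-Aa, H2-Ab1 and H2-Eb1 differed by -0.13, 0.21 and 0.48 and the invariant chain Cd74 by -0.35, while Ciita, their transactivator, measured 8.43 on the Spic-negative, 10.21 on the Spic-positive and 5.69 on the macrophage array. A second Ciita probe set differed by -0.75, within 2-fold. Costimulatory ligands diverged: Cd86 measured 8.38 and 11.23 and Cd80 8.61 and 7.13. The inhibitory ligands Cd274 (PD-L1, 7.09 and 9.62) and Pdcd1lg2 (PD-L2, 4.27 and 6.22) were higher. Of 18 genes in the group 6 were higher and 3 lower.

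Cytokine genes held large differences in both directions. Of 27 compared 12 were higher and 7 lower. Igf1, insulin-like growth factor 1, measured 5.07 and 11.80, and each of its 4 probe sets differed by 6.48 or more. The anti-inflammatory cytokine gene Il10 measured 4.28 and 10.56 and Il1a 4.16 and 9.19, while Il1b, the other interleukin 1, measured 13.63 and 12.35. Of the growth factor genes, Pdgfc (3.05 and 8.42), Pdgfb (6.37 and 8.91), Bmp2 (4.09 and 8.32) and Hbegf (5.29 and 9.34) were higher. Vegfa, the main vascular growth factor, was lower at 8.42 and 7.36, with another probe set at -0.16, and so were Osm (11.08 and 9.11), Hgf (7.33 and 5.36) and Tgfb1 (9.16 and 7.58).

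Among chemokines 13 of 20 were higher and 3 lower. Cxcl1, a neutrophil attractant, measured 6.52 and 11.73, and Cxcl12, the ligand of CXCR4, 4.23 and 7.74. The monocyte chemokine genes Ccl6 (12.93 and 10.74), Ccl9 (12.67 and 9.68) and Ccl2 (10.22 and 7.94) were the lower ones. Of 38 cytokine and growth factor receptors 10 were higher and 13 lower. Of the receptors of colony-stimulating factors, Csf2ra (10.66 and 8.66), Csf2rb (11.75 and 10.31) and Csf3r (11.01 and 9.13) were lower, while Csf1r differed by 0.18. Lower as well were Il6ra (10.79 and 8.72), Il17ra (11.68 and 9.66) and the vascular receptor gene Flt1 (7.64 and 4.61). Acvrl1 (ALK1), a receptor for bone morphogenetic proteins, measured 7.99 and 10.31 and Bmpr1a 4.71 and 6.43. Epor, the erythropoietin receptor, measured 6.03 and 8.97 and is also an erythroid gene.

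Coagulation genes were lower in 10 of 16 and higher in 5. Thrombomodulin (Thbd, 10.52 and 5.99), thrombospondin 1 (Thbs1, 12.35 and 7.98), F10 (9.92 and 7.94), F5 (9.03 and 7.19) and the urokinase receptor gene Plaur (11.67 and 9.52) were lower. Procr, the protein C receptor, went the other way at 4.28 and 7.49, so the receptors of the anticoagulant pathway were opposed. Tgm2, tissue transglutaminase, measured 10.34 and 13.51 while the other transglutaminase, F13a1, was lower. In the matrix and protease group 7 of 25 were higher and 9 lower. Col14a1 (3.45 and 11.59), the disintegrin gene Adamdec1 (4.72 and 12.17) and collagenase Mmp13 (2.36 and 8.44) were under the floor in monocytes only, while fibronectin (Fn1, 13.26 and 9.85), Emilin2 (12.34 and 9.79) and Mmp8 (10.09 and 6.72) were lower.

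Guidance and morphogen genes were higher in 10 of 33 and lower in 6. Sema6d, a transmembrane semaphorin, measured 4.70 and 11.70, whereas Sema4a (10.08 and 7.23), Sema4d (10.70 and 8.03) and the receptor gene Plxnd1 (difference -3.26) were lower. Notch1 measured 9.84 and 7.52 but the Notch target genes Hes1 and Hey1 were higher by 1.18 and 1.68. Tcf7l2, a transcription factor of the Wnt pathway, measured 6.06 and 9.03. Tmem26, a membrane protein, measured 6.46 and 11.53.

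Of 52 myeloid transcription factors 15 were higher and 20 lower (median -0.47). After Spic came the nuclear receptors Nr1h3 and Pparg (7.05 and 10.83) with their partner Rxra (8.41 and 9.84). A second Rxra probe set differed by only 0.018. Myc measured 5.94 and 8.79 and Egr1 10.91 and 13.25. Maf, a macrophage regulator, measured 9.50 and 11.26, with other probe sets from near 0 to 3.64. Tfec, of the MITF family, was higher at 6.87 and 8.72. Spi1 (PU.1), the Ets factor common to both cell types, did not differ by 2-fold, at 10.28 and 9.75.

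The lower factors included the granulocyte and monocyte regulator Cebpa (9.87 and 6.99), Nfil3 (12.29 and 9.61), Irf2 (difference -2.44), Nr4a1, Runx3 (9.42 and 7.45), Ahr (11.04 and 9.08) and Stat3 (10.87 and 9.03). A further probe set differed by -1.29 for Runx3, by -0.79 for Ahr and by only -0.0072 for Stat3. Bach1, the heme-sensing repressor of Spic and Hmox1, measured 11.54 and 10.13, with another probe set at -2.79. Id3, an inhibitor of helix-loop-helix factors, measured 8.73 and 7.17. Irf8 was higher by 1.06 and Irf5 differed by -0.99. Klf4 and Klf2, monocyte factors of the Kruppel family, stayed within 2-fold at -0.31 and -0.30, with a second Klf4 probe set at -1.92.

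Of 32 cell cycle genes 29 were higher and 1 was lower, and the median was 2.65. Genes of the replicative helicase were all higher, with Mcm5 at 7.31 and 10.73, Mcm2 at 6.54 and 9.72 and Mcm7 at 8.28 and 11.47. The mitotic genes Cdc20 (6.58 and 10.67) and Mki67 (7.64 and 11.43) went with them. The D-type cyclins, which drive entry into the cycle, differed among themselves. Ccnd2 measured 5.35 and 11.03, Ccnd1 5.75 and 8.57 and Ccnd3 10.48 and 8.65. Erythroid markers were higher on the same array, and their part in these values was not tested. In the BCL2 and death group 4 of 22 were higher and 6 lower, among them Fas (7.90 and 5.41), Bak1 (7.71 and 5.13) and Bid (9.02 and 7.42), while Bcl2 differed by 1.0 and Mcl1 by -0.43.

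Ranking was confined to genes above the floor on both arrays whose probe sets all differed in the same direction. The 25 largest upward differences ran from 8.37 (Fcna) to 5.17 (Tspan4) and the 25 largest downward ones from -5.50 (Ccr2) to -3.53 (Lifr). Beyond genes already named, the upward set held Cd81, a tetraspanin (6.06 and 12.73), Angptl4, an inhibitor of lipoprotein lipase (5.73 and 12.03), Abcc3, an exporter of organic anions such as bilirubin conjugates (5.90 and 11.23), Ephx1, microsomal epoxide hydrolase (5.67 and 11.25), the elastase gene Cela1 (5.52 and 11.82) and Tent5c, a poly(A) polymerase (6.03 and 11.65). Mpzl1, Arap2, Serpinb6a, Rgl1 and Rab3il1 lay between 6.04 and 5.25. The downward set held the inflammasome gene Mefv (pyrin, 10.68 and 6.87), Pi16 (10.27 and 6.07), Ahnak, a scaffold of the membrane (12.87 and 8.90), Rab5c, of early endosomes (10.59 and 6.74), Padi2, which makes citrulline in proteins (9.66 and 5.92), and the leukemia inhibitory factor receptor gene Lifr (9.0 and 5.46). Rassf2, Nhsl2, Emp1, Mtus1, Gpr132, Olfm1, Tppp3 and Atrnl1 lay between -4.07 and -3.55.

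**Figure D5:**
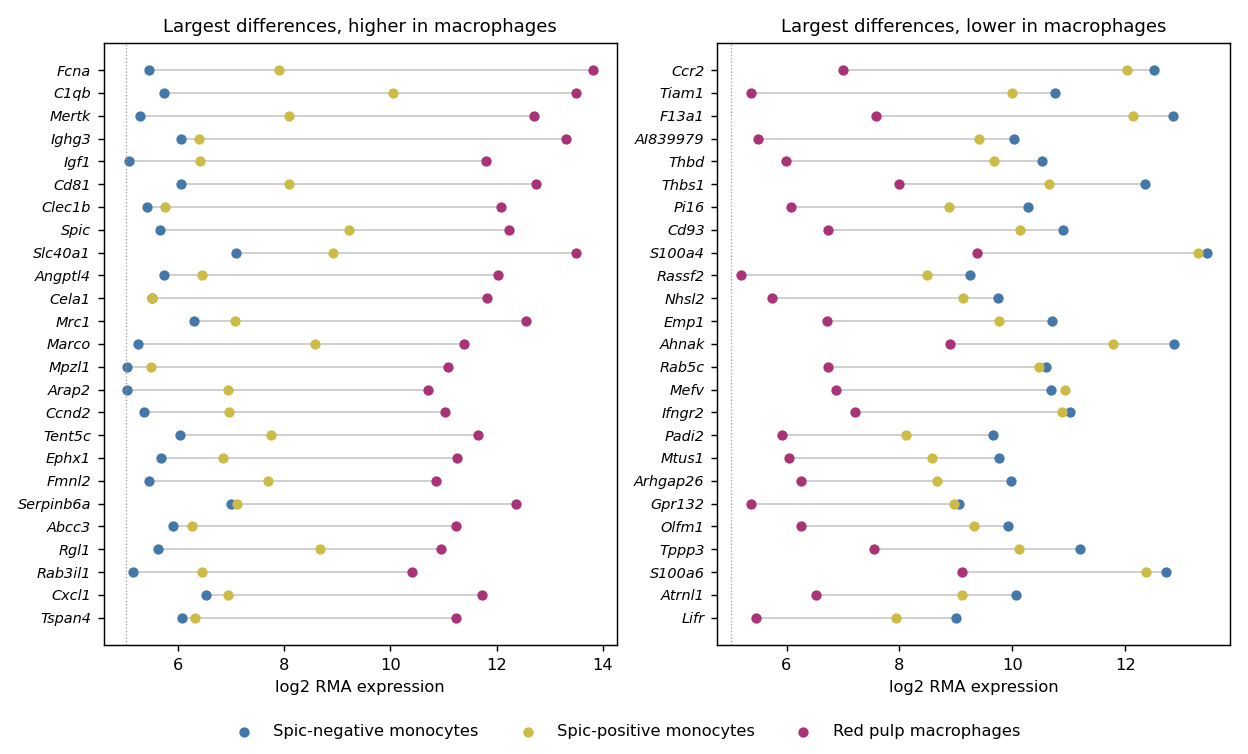
Levels (log2 RMA expression, 1 array each) of the 25 genes with the largest differences in each direction among genes above the floor (dotted line, 5.02) on both arrays. On the left the macrophage points lie at 10.41 or above, and on the right each Spic-positive monocyte point lies nearer to the Spic-negative than to the macrophage one, as for Ccr2 at 12.03, 12.51 and 7.0.

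Among genes under the floor in macrophages, the highest levels in Spic-negative monocytes were those of Gdpd3, a lysophospholipase D (10.49 and 4.57), Ifi44l, the Y-linked Eif2s3y, Stxbp6, a syntaxin-binding protein (9.54 and 3.03), and Ifi202b. After Plcb1 and Vcan came Gas7 (8.77 and 4.86), Slfn1 (8.65 and 4.51) and Bst1 (CD157, 8.54 and 4.29). In Spic-positive monocytes these genes stayed between 7.39 and 10.22, so the low value was that of the macrophage array alone. Among genes under the floor in Spic-negative monocytes, those with the highest macrophage level beyond the groups above were Car2, a carbonic anhydrase also high in red cells (4.57 and 12.08), Asb2, a ubiquitin ligase subunit (4.08 and 11.45), and Epb41l3, a membrane skeleton protein (4.31 and 11.31). The other genes of that set have been described above.

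Probe sets of 1 gene give a measure of the error between probes, although not between animals, since they share the RNA. Of 2812 further probe sets of genes past 2-fold, 87.2% had the same sign as the brightest and 55.4% were also past 2-fold. At 4-fold, with 821 further probe sets, the shares were 93.9% and 52.3%. Over all genes the median gap between the brightest and a further probe set was 0.60. A difference near the 2-fold threshold is therefore of the size of this gap. Those of 5 or more are far beyond this median, but the gaps varied, with an SD of 1.04. Plcb1 (-5.24) and Rgl1 (5.32) had further probe sets at -0.73 and 1.19, while all 4 of Igf1 lay at 6.48 or more. A large difference in 1 probe set is therefore not secure against probe error.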

How the data were processed

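RNA of 3 sorted populations was measured on 1 Affymetrix mouse array each, from biotin-labelled cRNA made with a 2-cycle kit, per the labels' protocols. The authors deposited 1 log2 value for each probe set and array and name RMA, per the submitters' processing notes. Its version is not given in the sources available, and the log2 scale was read from the values (1.82 to 14.50, none below 0). Array medians were 5.01, 5.08 and 4.96 for Spic-negative monocytes, Spic-positive monocytes and macrophages. RMA as usually run makes the distributions of arrays alike, which hides a difference in RNA content of the cells, and 2-cycle amplification shortens cRNA. The number of arrays limits the precision.

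Of 45037 probe sets other than controls, 34945 had 1 gene symbol, 932 several and 9160 none here, and 34741 symbols were matched by gene identifier to a RefSeq gene table (GRCm38.p6). Differences were counted at 2-fold and 4-fold without any test. The members and the 48 gene lists were chosen with earlier results of these data known. The genes named are the 25 largest differences in each direction above the floor on both arrays, the 15 highest levels among genes above it on 1 array, with probe sets differing in 1 direction and at most 2 genes per family of near-identical copies, and list members. Alternatives were 8 for differences and medians, further ones for the counts, and 2-fold in place of 4-fold for the motif shares. Python 3.11.15, numpy 2.4.6, pandas 2.3.3 and R 4.3.3 with limma 3.58.1 (cyclic loess) were used, and the scripts were tested on simulated data.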

Additional observations from a re-analysis of the deposited data

How the results depend on the processing

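No paired analysis was possible because each population has 1 array, and for the same reason no replicate could be left out. Over the alternatives run, the genes at least 2-fold higher numbered 1737 to 2607 and those lower 1141 to 1495, and the share higher among them was 58.7% to 67.2%. The median over all genes was 0.14 under cyclic loess and 0.11 with arrays centred on their medians. Without genes of the X and Y chromosomes, 2351 were higher and 1342 lower. The count at least 4-fold higher moved by over 1.5 times in 1 setting, to 492 with only genes above the floor on both arrays, an alternative chosen after seeing the data. Group medians that moved by more than 0.60, the median gap between probe sets of a gene, were these. With the mean of a gene's probe sets, dendritic cell markers gave 0.11. With their median, apoptotic cell uptake gave 0.94 and dendritic cell markers 0.11. Under cyclic loess, platelet markers gave 0.52 and basophil, mast cell and eosinophil markers 2.52. With no floor, Fc receptors gave 0.75, coagulation -0.37, platelet 0.33 and basophil markers 0.93. With the floor at the 75th percentile, which tests fewer genes, medians were 6.20 for red pulp macrophage genes, 3.36 for complement, 0.99 for Fc receptors, -0.92 for C-type lectins and Siglecs, 0.024 for other adhesion molecules, -1.37 for matrix and proteases, 1.45 for amino acid, polyamine and nucleoside genes, 2.31 for B, 4.79 for T and 3.85 for NK cell markers, -0.15 for dendritic, 3.89 for platelet, 3.06 for endothelial and stromal and 4.86 for basophil markers. Without probe sets that may bind several transcripts, red pulp macrophage genes gave 6.52, apoptotic cell uptake 0.99 and basophil markers 5.63. At 2-fold in place of 4-fold, motif shares among higher genes moved to 5.73% for the AP-1 and MAF core, 2.91% for the interferon element and 53.4% for the GC box, and among lower genes to 57.9% for the GC box. Differences of single genes reversed for Lrp1 (0.65 with the mean and with the median of its probe sets), with the median for Cflar (-0.0028), Hif1a (0.32), Itga5 (-0.093), Scd2 (-0.31) and Tln1 (0.996), and without shared probe sets for Lmna (-0.91), P2rx4 (-2.20) and Srxn1 (-0.076). The cause was not tested. Of all values of single genes under the alternatives, 6469 moved by less than 0.60 and 412 by more without a reversal. Levels near the floor limit the size of large differences.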
